A study of Mus musculus with 14 samples.

Results

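Mouse embryonic stem (ES) cell colonies picked by hand on day 7 of retinoic acid (RA) treatment were set against untreated ES cells in standard culture. The members were the 4 arrays whose titles name these groups, of 14 arrays in the series, with all 42006 probes that are not control spots. The day 7 colonies carried the cell line label ES MC1 and the strain label 129SvEv-Tac, had been exposed to 50 nM RA in cultures whose title names LIF, and are called pluripotent in the series' design text. The sample description abbreviates these cells as MC1ZE, so the subline was not settled by the labels. Day 4 colonies were MC1-ZE16 in 50 nM RA with LIF. The design text calls them hand-picked, while their treatment text has RNA taken straight from the culture. RA 48 h cells were MC1-ZE3 after 48 h in 50 nM RA. Passage 10 cells were MC1-ZE3 that had spent 7 days in RA before 10 passages in standard culture. LY294002 cells, also MC1-ZE3, had been given this inhibitor of phosphoinositide 3-kinase for 48 h. The untreated cells were MC1-ZE3 in standard culture, collected on day 3 (standard day 3), and MC1-ZE3 grown as the control of the 48 h experiment (control day 3). These 6 groups carried the strain label 129/Sv, and every group had 2 arrays. The labels do not tell whether replicate arrays stem from different cultures. The p-values below therefore rest on a spread between arrays that may be only technical.

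RA is a vitamin A derivative that enters the nucleus and binds RA receptors, which sit on DNA beside retinoid X receptors and switch on target genes, the 3′ members of the Hox clusters among the best known. It drives mouse ES cells out of the undifferentiated state, while LIF, a cytokine that signals through STAT3, helps to hold them in it. Hand-picked colonies can hold cells of more than 1 state, and in such bulk RNA fewer cells of a type and less RNA per cell cannot be told apart.

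On each array the sample RNA carried Cy3 and was read against Cy5-labelled RNA of a common reference, a pool of mouse cell lines of many tissues with ES cell RNA mixed in. A level is given below as the log2 ratio of sample to reference, so that 0 means a level equal to the reference, and a change is the difference of 2 such levels. Cy3 was well above background for 66.1% and 66.3% of probes on the day 7 arrays, against 58.2% and 57.9% on the standard day 3 arrays. The median Cy3 signal was 2.46 and 2.30 times its local background on day 7 and 2.11 and 2.06 times on standard day 3, and whether this brightness had a part in the results was not tested. Over the 31053 probes tested, the 2 arrays of a group had r = 0.972 on day 7 and 0.985 in standard day 3. The day 7 arrays lay together on 1 slide that held no other group, and the standard day 3 arrays lay on 2 other slides. Treatment, cell line label, strain label, picking, day, slide and scan day therefore cannot be told apart here. The number of arrays limits the precision.

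The probes are 60 bases long and carry no gene name. Probes were placed by exact matches of at least 40 bases to RefSeq promoter windows (250 bases before to 50 after each start, GRCm38.p6). This put 366 of the 42006 probes at 1 position within these windows, and 276 of the placed probes were tested. The rest of the genome was not searched, so a placed probe may also match elsewhere. A gene is named below only where the whole probe lies within the span of exactly 1 RefSeq gene on the same strand, or on a strand the table does not give, and reaches past the start of no other gene. The span does not say whether the probe is exonic, intronic or in a UTR. This gave 181 tested probes in 174 genes. Of 579 genes in 25 lists (pluripotency, lineages and other cell types, Hox and RA response genes, signalling, and general cell functions such as ribosomal proteins) only 4 had such a probe. They were Hoxb2, Pax7 of the neural list, Acta2 of the fibroblast and feeder list and Rpl38 of the ribosomal proteins. No list for pluripotency or for another cell type could therefore be read as a whole, and the label of undifferentiated cells could not be checked against its defining markers.

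The first set of sequences is shown because these probes changed most or lay apart from all other groups. Z00000270-1 and Z00015331-1 are the largest rises against standard day 3, Z00026394-1 and Z00048598-1 are the largest falls, and Z00024925-1 and Z00065931-1 are the probes farthest above and below every other group. None of the 6 has a position here.
Z00000270-1: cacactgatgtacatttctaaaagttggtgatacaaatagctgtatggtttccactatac
Z00015331-1: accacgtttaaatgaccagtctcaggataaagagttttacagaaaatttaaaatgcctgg
Z00024925-1: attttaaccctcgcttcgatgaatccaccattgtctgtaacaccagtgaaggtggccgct
Z00026394-1: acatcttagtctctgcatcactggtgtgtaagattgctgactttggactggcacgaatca
Z00048598-1: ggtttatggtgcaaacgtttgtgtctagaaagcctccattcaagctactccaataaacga
Z00065931-1: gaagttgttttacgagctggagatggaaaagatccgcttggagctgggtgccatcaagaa

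The second set holds the 9 placed probes that changed at least 2-fold, from the largest rise to the largest fall, with positions on GRCm38.p6. Z00060294-1 lies at chr12:87795362-87795421 (+) and begins at -138 from the start of Gm21936 on the same strand. Z00031269-1 lies at chr8:20649115-20649174 (+) and begins at -213 from the start of Gm46074. Hoxb2 was read by Z00070363-1 at chr11:96353540-96353599 (+), inside the Hoxb2 span, whose strand the table does not give, and is antisense to Hoxb3os, beginning before that gene's start. Z00058942-1 lies at chr13:22282309-22282368 (+) and begins at -32 from the start of Gm11295, so that it runs past that start. H2bc11 was read by Z00064795-1 at chr13:22043200-22043259 (+) and H2bc7 by Z00030788-1 at chr13:23574118-23574177 (-). The capitals in these H2b probes mark the longest run they share, of 15 bases. Homer2 was read by Z00075577-1 at chr7:81609865-81609924 (-), Bcl11a by Z00023694-1 at chr11:24172868-24172927 (+) and Zbtb8a by Z00010249-1 at chr4:129354034-129354093 (-).
Z00060294-1: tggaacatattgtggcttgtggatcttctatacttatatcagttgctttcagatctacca
Z00031269-1: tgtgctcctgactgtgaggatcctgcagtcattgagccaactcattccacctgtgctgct
Hoxb2 Z00070363-1: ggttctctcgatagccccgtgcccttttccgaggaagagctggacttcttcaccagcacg
Z00058942-1: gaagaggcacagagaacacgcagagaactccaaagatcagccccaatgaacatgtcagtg
H2bc11 Z00064795-1: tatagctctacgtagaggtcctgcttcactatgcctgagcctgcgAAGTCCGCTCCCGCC
H2bc7 Z00030788-1: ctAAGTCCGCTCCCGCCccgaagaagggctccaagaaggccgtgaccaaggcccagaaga
Homer2 Z00075577-1: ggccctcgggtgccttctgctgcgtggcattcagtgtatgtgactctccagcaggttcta
Bcl11a Z00023694-1: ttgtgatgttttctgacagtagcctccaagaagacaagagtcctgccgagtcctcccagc
Zbtb8a Z00010249-1: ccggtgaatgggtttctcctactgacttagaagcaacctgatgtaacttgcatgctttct

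The comparison asked how far the colonies that remained after 7 days in RA had moved from untreated cells. Against standard day 3, 53.4% of the 31053 tested probes had a Benjamini-Hochberg adjusted p under 0.05 in limma, here called past the threshold. Of these, 8809 rose (28.4% of tested probes) and 7784 fell (25.1%). Changes of at least 2-fold were found for 8.38%, 1657 upward (5.34%) and 946 downward (3.05%). The arrays of both groups did not overlap for 1655 of the 1657 and for all 946, where 71.4% of all tested probes did not overlap. As the 2-fold probes were chosen on these same arrays, their lack of overlap was largely set by the choice. Large changes against this baseline were mostly rises: 361 probes rose and 132 fell at least 4-fold, 107 rose and 16 fell at least 8-fold, and 26 rose and 2 fell at least 16-fold. The median SE of a change was 0.08 and the median change of all tested probes 0.02. The balance of rises and falls depended on the scaling. In the values used here 53.1% of the calls and 63.7% of the 2-fold calls were rises. When loess was replaced by centring each array on its median, these shares were 72.8% and 78.6%. With the Cy3 channel alone they were 49.9% and 57.1%. The processed signals of the Agilent extraction software gave 50.8% and 60.1%.

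**Figure D1:**
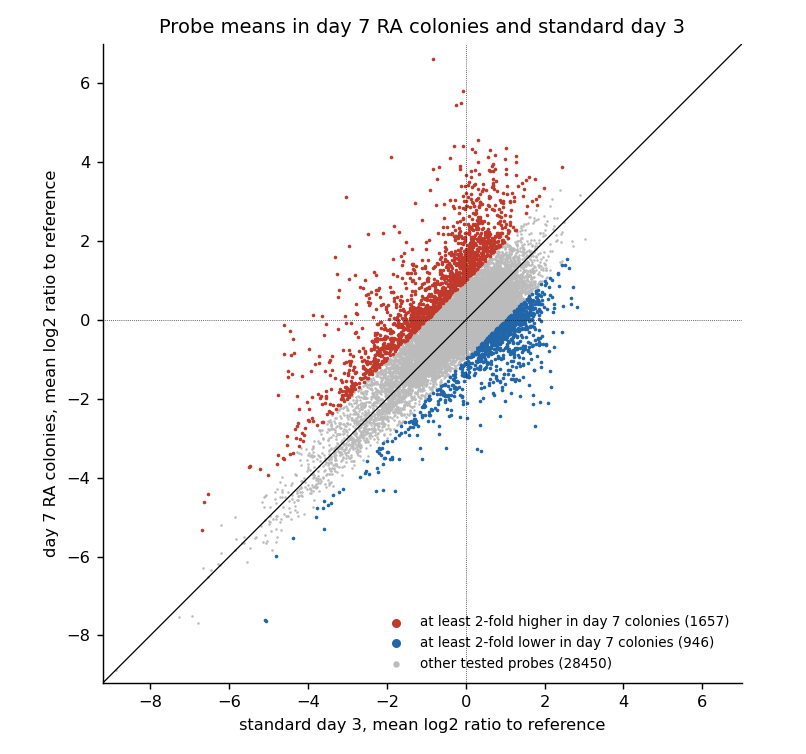
Mean log2 ratio to the reference of each tested probe in day 7 RA colonies (vertical axis) and in standard day 3 cells (horizontal axis), n = 2 arrays each, with equal levels on the diagonal. The 1657 red probes rose and the 946 blue probes fell at least 2-fold, and the red points reach farther from the diagonal than the blue ones.

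By their medians, the raised and lowered probes lay on opposite sides of the reference. The 1657 raised probes had a median log2 ratio of 0.86 in day 7 colonies and -0.67 in standard day 3 cells. Of these probes 706 were above the reference in day 7 colonies and below it in standard day 3, 488 were above it in both groups and 463 below it in both. The 946 lowered probes had medians of -0.54 in day 7 colonies and 0.91 in standard day 3 cells, and 569 of them were below the reference in day 7 colonies but above it in standard day 3. As the probes were chosen on these same arrays, these medians are a description.

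Most of the changed probes were measurable in both groups. Cy3 was well above background on all 4 arrays for 1406 of the 1657 raised and 908 of the 946 lowered probes. Over all tested probes it was so for 23287 of 31053. For 201 raised probes neither standard day 3 array was above background, and for 23 lowered probes neither day 7 array was. For such a probe a fold on the Cy3 channel alone, normalized by loess and Aquantile, is given. It is the quotient of the brighter group's mean over the dimmer group's mean. Each array of the dimmer group enters with its own signal or the lowest signal well above background, whichever is higher. Where the probe's own signals are higher, the fold is their plain quotient and no bound. It holds on that Cy3 scale, open to dye bias, and not for the ratio to the reference. The share of probes that changed at least 2-fold differed with the reference signal. With the tested probes split into 4 nearly equal classes from the weakest to the strongest Cy5 signal, 3.25%, 4.73%, 6.62% and 6.75% rose. The shares that fell were 0.386%, 3.22%, 4.91% and 3.67%, highest in the third class. The probes' base composition differed little between the sets, with a median share of G or C of 43.3% in raised, 43.3% in lowered and 45.0% in all tested probes.

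Among the single probes, Z00000270-1 rose most. Its log2 ratio was 6.60 and 6.66 on the day 7 arrays, against -0.77 and -0.90 on the standard day 3 arrays. It was higher on both day 7 arrays than on any other array of the series. The change was 7.47 (SE 0.08, limma adjusted p = 1.15e-14), or 177-fold, and it was 4.44 against control day 3, where the arrays read 2.19 and 2.19. Passage 10 cells stood near standard day 3, at -0.75 and -0.84. Z00015331-1 had 3.17 and 3.07 in day 7 colonies and -2.97 and -3.08 in standard day 3. It rose by 6.14 (SE 0.08, limma adjusted p = 6.11e-14), and by 3.44 against control day 3. Z00074370-1 had 4.12 and 4.13 in day 7 colonies and -1.97 and -1.84 in standard day 3 cells, a rise of 6.03 (SE 0.09, limma adjusted p = 1.69e-13). All 3 lay between these groups in day 4 colonies, with 3.28 and 3.18, 0.12 and 0.13, and 1.10 and 0.97 in the same order of probes.

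Z00005343-1 was low in both untreated groups. Its log2 ratio was 1.75 and 1.45 in day 7 colonies, against -3.33 and -3.31 in standard day 3 and -3.63 and -3.55 in control day 3. The day 7 arrays stood far above both untreated groups. It rose by 4.92 against standard day 3 (SE 0.11, limma adjusted p = 5.25e-12) and by 5.19 against control day 3. Z00024925-1 had 1.71 and 2.06 in day 7 colonies and -2.97 and -2.94 in standard day 3 cells, a rise of 4.84 (SE 0.12, limma adjusted p = 8.92e-12). In day 4 colonies it read -2.58 and -2.57 and after 48 h of RA -2.67 and -2.49, so that day 7 was the only group above the reference. Its smallest margin over another group was 3.98, against control day 3. Z00015446-1 had 3.73 and 3.92 in day 7 colonies and -0.77 and -0.88 in standard day 3 cells. The change in log2 ratio was 4.65 (limma adjusted p = 2.06e-12). Neither standard day 3 array was well above background for it. On the Cy3 channel alone its mean log2 signal was 11.80 in day 7 colonies and 6.65 in standard day 3 cells. The quotient was 35.6 on that scale, taken over a standard day 3 signal that was not well above background, so it is no bound.

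Z00026394-1 fell most. Its log2 ratio was -2.81 and -2.55 on the day 7 arrays and 1.96 and 1.56 on the standard day 3 arrays. LY294002 cells, at -2.75 and -2.50, were as low as day 7 colonies. The change was -4.44 (SE 0.13, limma adjusted p = 3.32e-11), a fall of 21.8-fold. Z00048598-1 had -2.41 and -1.79 in day 7 colonies and 2.15 and 2.00 in standard day 3 cells, a change of -4.17 (SE 0.15, limma adjusted p = 1.66e-10). Day 4 colonies were as low, at -2.31 and -2.14. Z00065931-1 had -1.94 and -1.85 in day 7 colonies and 1.66 and 1.76 in standard day 3 cells, a change of -3.60 (SE 0.07, limma adjusted p = 1.2e-12). Day 4 colonies stood above standard day 3, at 2.26 and 2.21, and every array outside day 7 was above the reference. Among the 20 largest falls, Z00014876-1 had the largest difference between passage 10 and standard day 3. Its log2 ratio was -2.48 and -2.83 in day 7 colonies, -1.20 and -1.21 in passage 10 cells and 0.34 and 0.36 in standard day 3 cells, and passage 10 differed from standard day 3 by -1.55 (limma adjusted p = 4.45e-06).

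**Figure D2:**
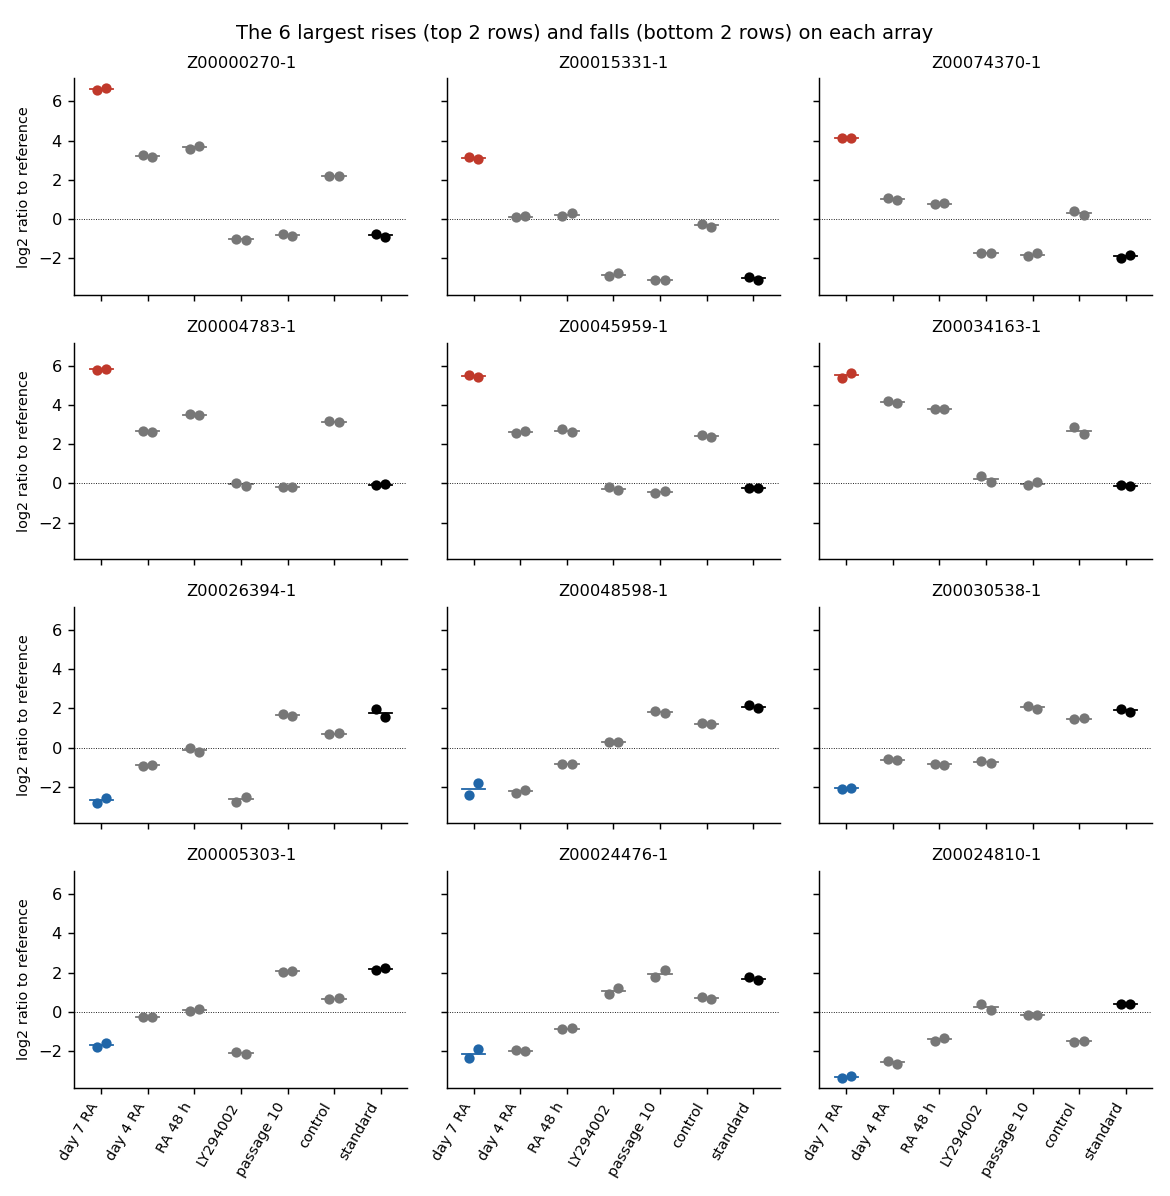
Log2 ratio to the reference on each of the 14 arrays for the 6 probes with the largest rises (top 2 rows) and the 6 with the largest falls (bottom 2 rows) in day 7 RA colonies against standard day 3, with 1 point per array and a line at the group mean. The coloured day 7 points lie apart from the black standard day 3 points in every panel, passage 10 lies nearer to standard day 3 than to day 7, and in the 6 rises control day 3 lies between day 7 and standard day 3.

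In each of the 6 largest rises control day 3 lay between day 7 and standard day 3, and standard day 3 differed from it by -2.22 to -3.20. The 20 largest rises had a median change of 4.65 against standard day 3 and of 3.96 against control day 3, and all 20 were at least 2-fold above each of the 6 other groups. Over all tested probes 274 lay at least 2-fold above each of the 6 (0.882%). The 20 largest falls had medians of -3.30 against standard day 3 and -2.64 against control day 3, and of these 9 were at least 2-fold lower than day 4 colonies (2.61% of all tested probes were). Only 16 tested probes lay at least 2-fold below each of the other 6 groups (0.0515%), with Z00065931-1 the farthest. All these comparisons share the day 7 arrays, on which the probes were chosen.

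Among placed probes changes were fewer than on the whole array. Of the 276 placed and tested probes 51 rose (18.5%) and 44 fell (15.9%). Over all tested probes these shares were 28.4% and 25.1%. Of the 181 in exactly 1 gene 35 rose (19.3%) and 27 fell (14.9%). Of these, 4 rose and 2 fell at least 2-fold, where 5.34% and 3.05% of all tested probes did, with a median change of 0.01, against 0.02 over all tested probes. The genes named are the 10 largest rises and 10 largest falls of this set. The probe matched over all 60 bases for 9 of these 20 genes, Hoxb2, Gng5, Mff, Ciao2b, Zbtb8a, Bcl11a, Slc22a20, Rpl38 and Zbtb22. For the others it matched over at least 41 bases and ran past the end of the known window, so the rest of its position is inferred.

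Hoxb2, a 3′ Hox gene that RA is known to induce in the developing hindbrain, rose most among the genes that could be named. Its log2 ratio was 1.07 and 0.56 in day 7 colonies and -1.53 and -1.48 in standard day 3 cells. Both day 7 arrays stood above the reference and every untreated or passage 10 array well below it. The change was 2.32 (SE 0.12, limma adjusted p = 5.38e-09), and against control day 3, at -1.47 and -1.46, it was 2.28 (limma adjusted p = 9.14e-09). Passage 10 cells had -1.34 and -1.45 and did not pass the threshold against standard day 3 (limma adjusted p = 0.709). Day 4 colonies had -0.25 and -0.33, and the day 7 level was higher than theirs by 1.10 (limma adjusted p = 5.64e-06). The highest level was in RA 48 h cells, at 2.62 and 2.66. In the order of levels RA 48 h came first, then day 7 and day 4 colonies, while LY294002, passage 10, control day 3 and standard day 3 lay between -1.24 and -1.53. The day 7 change against standard day 3 was smaller than the 48 h change against control day 3, which was 4.11 (difference -1.78, limma adjusted p = 4.11e-06). Over all tested probes 7.28% differed at least 2-fold between these changes, whose baselines also differ. Hoxb2 was the only listed Hox gene with a placed and tested probe. The rest of the cluster could not be read by name here, as most probes have no position.

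Zbtb8a, a member of the BTB zinc finger family, and Bcl11a, a zinc finger repressor known from fetal globin silencing and lymphoid development, were the largest falls among the named genes. Zbtb8a had -0.73 and -0.70 in day 7 colonies and 0.94 and 1.05 in standard day 3 cells. The log2 ratio fell by 1.71 (SE 0.06, limma adjusted p = 2.13e-10) and by 1.25 against control day 3 (limma adjusted p = 5.14e-09). Day 4 colonies, at -0.09 and -0.06, lay between day 7 and standard day 3. Bcl11a had -1.14 and -1.63 in day 7 colonies and -0.23 and -0.40 in standard day 3 cells. It fell by 1.07 (SE 0.13, limma adjusted p = 1.59e-05) and by 1.13 against control day 3 (limma adjusted p = 1.09e-05). Day 4 colonies (-1.57 and -1.35) and RA 48 h cells (-1.18 and -1.30) were as low, and LY294002 cells were the highest group, at 1.58 and 1.61. Zbtb22, another BTB zinc finger gene, fell by 0.64 and Mllt6, a PHD finger gene known as a fusion partner in leukaemia, fell by 0.69 against standard day 3 (limma adjusted p = 1.12e-05 and 9.98e-07). Against control day 3 their changes were 0.18 and 0.01, and neither passed the threshold.

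Of the core histone genes, which package DNA, H2bc11, H2bc7 and H4c8 had placed and tested probes. Probes without a position may read others. H2bc11 had 0.48 and 0.57 in day 7 colonies and -0.63 and -0.70 in standard day 3 cells, a rise of 1.20 (SE 0.09, limma adjusted p = 1.63e-07). H2bc7 had 0.22 and 0.47 in day 7 colonies and -0.65 and -0.75 in standard day 3 cells, a rise of 1.05 (SE 0.08, limma adjusted p = 2.33e-07). In both genes the day 7 arrays were above the reference and the standard day 3 arrays below it. Of 2 probes in H4c8, Z00038251-1 rose by 0.46 (limma adjusted p = 0.000173) and Z00074088-1, not well above background on either standard day 3 array, had means close to 0 in both groups (limma adjusted p = 0.93). Against control day 3 H2bc11 differed by -0.09 and H2bc7 by 0.02 (limma adjusted p = 0.415 and 0.841). Copies of histone genes are nearly identical in sequence, so these probes may read several of them.

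Among the other rises, Homer2, a scaffold protein of synapses, had 1.24 and 0.84 in day 7 colonies and 0.07 and -0.06 in standard day 3 cells, a rise of 1.04 (SE 0.10, limma adjusted p = 2.67e-06). Plet1, a surface protein known from placenta and early embryos, had 1.89 and 2.20 in day 7 colonies and 0.98 and 1.12 in standard day 3 cells, a rise of 1.00 (SE 0.10, limma adjusted p = 2e-06). In control day 3 Homer2 read 1.06 and 1.02, and Plet1 2.12 and 1.97, within the range of the day 7 arrays. Lamb2, a laminin chain of basement membranes, had -1.19 and -0.99 in day 7 colonies and -1.76 and -1.90 in standard day 3 cells, a rise of 0.74 (SE 0.08, limma adjusted p = 5.11e-06). It stood higher on both day 7 arrays than on any other array, and its rise against control day 3 was 1.09 (limma adjusted p = 1.86e-07). Gng5, a G protein subunit, rose by 0.76, Mff, a mitochondrial fission factor, by 0.74, Ciao2b, of iron-sulphur protein assembly, by 0.70 and Sec61b, of the channel for secreted proteins, by 0.60 (limma adjusted p = 4.25e-06, 3.57e-06, 1.62e-05 and 0.000281 in this order). Against control day 3 Ciao2b differed by 0.23 and passed the threshold (limma adjusted p = 0.0388). Gng5 (0.15), Mff (0.18) and Sec61b (-0.09, the opposite sign) did not (limma adjusted p = 0.15, 0.0656 and 0.507).

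Among the other falls, Slc22a20, an organic anion transporter, had -0.07 and 0.12 in day 7 colonies and 0.81 and 0.69 in standard day 3 cells, a change of -0.72 (SE 0.09, limma adjusted p = 2.27e-05). It was -1.73 against control day 3 (limma adjusted p = 1.07e-08). Slc12a4, a potassium-chloride cotransporter, had -0.41 and -0.22 in day 7 colonies and 0.47 and 0.33 in standard day 3 cells, a change of -0.72 (SE 0.08, limma adjusted p = 4.79e-06). Control day 3 arrays, at -0.60 and -0.61, lay below day 7, and this change of 0.29 also passed the threshold (limma adjusted p = 0.00681). Rpl38, a protein of the large ribosomal subunit, gave different answers with its 2 probes. They overlap on the same strand, Z00075310-1 at chr11:114668526-114668585 and Z00032009-1 at chr11:114668538-114668597. From the nearest Rpl38 start they begin at -54 and -42, so part of each lies before that start. Whether they read the main Rpl38 transcript was not tested. Z00075310-1 fell by 0.68 against standard day 3 (SE 0.08, limma adjusted p = 1.34e-05), and Z00032009-1 had a change of 0.05 (SE 0.10, limma adjusted p = 0.728). Against control day 3 they fell by 1.65 and 1.22. Kif22, a chromosome-associated kinesin, had 0.36 and 0.17 in day 7 colonies and 0.63 and 1.21 in standard day 3 cells, and fell by 0.66 (SE 0.15, limma adjusted p = 0.00214). Snrnp40, of the U5 splicing complex, and Frg2f1 both fell by 0.56 (limma adjusted p = 0.000334 and 0.000123). Against control day 3 their changes had the opposite sign, 0.12 and 0.16, and did not pass the threshold (limma adjusted p = 0.322 and 0.138). Kif22 kept its sign there, at -0.23, without passing (limma adjusted p = 0.217).

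**Figure D3:**
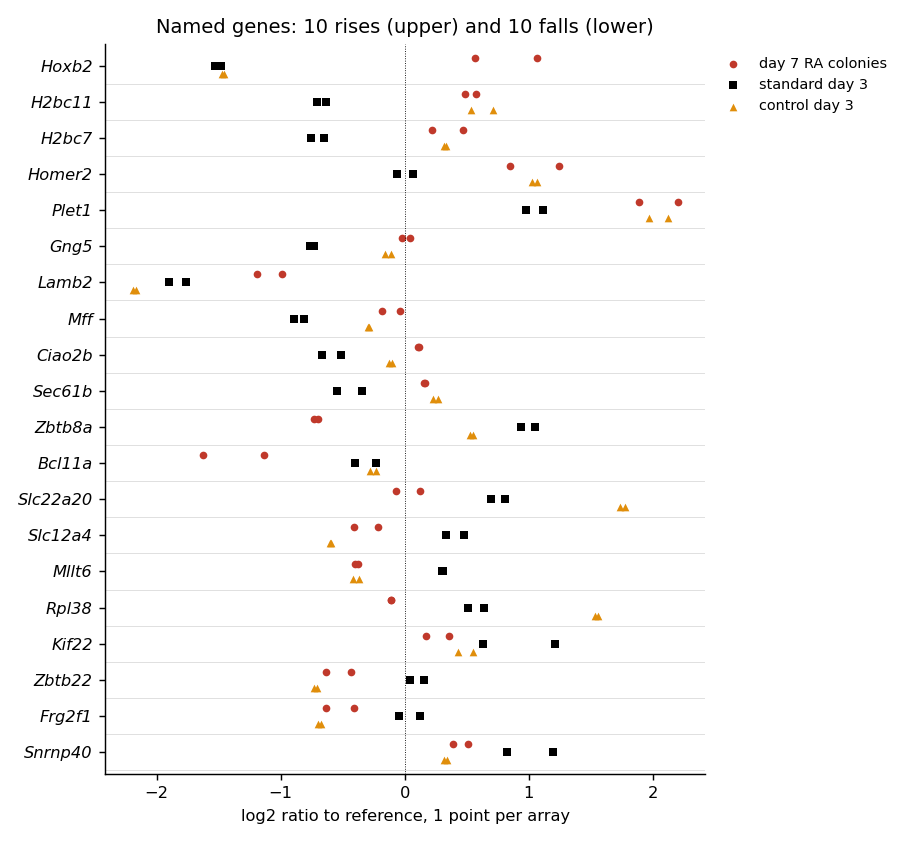
Log2 ratio to the reference on the 2 arrays each of day 7 RA colonies (red circles), standard day 3 (black squares) and control day 3 (orange triangles) for the 10 named genes with the largest rises (upper) and the 10 with the largest falls (lower). Hoxb2, Lamb2, Zbtb8a and Bcl11a are apart from both untreated groups in the same direction, while for H2bc11, H2bc7, Homer2 and Plet1 the control day 3 points lie close to those of day 7.

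Of the genes in lists of other cell types, Pax7, a transcription factor of neural crest and muscle precursors, had -0.25 and -0.20 in day 7 colonies and -0.00 and -0.26 in standard day 3 cells (change -0.09, limma adjusted p = 0.491). Acta2, smooth muscle actin, changed by -0.23 (limma adjusted p = 0.0348), but was well above background on neither day 7 array.

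Of the placed probes with no named gene, Z00060294-1 had 3.60 and 3.29 in day 7 colonies and 0.36 and 0.53 in standard day 3 cells. It rose by 3.00 (SE 0.10, limma adjusted p = 7.99e-11), and by 1.49 against control day 3. RA 48 h cells had 4.16 and 4.20 and day 4 colonies 3.23 and 3.23, so all groups in RA stood above the untreated ones, and LY294002 cells were lowest at -2.55 and -2.40. Z00031269-1 had 1.42 and 1.63 in day 7 colonies and -1.02 and -0.89 in standard day 3 cells, a rise of 2.48 (SE 0.10, limma adjusted p = 4.29e-10), which was 0.70 against control day 3. Z00058942-1 had 1.63 and 1.43 in day 7 colonies and -0.12 and 0.16 in standard day 3 cells, a rise of 1.51 (SE 0.13, limma adjusted p = 6.84e-07), which was 0.33 against control day 3 (limma adjusted p = 0.0493).

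The untreated group chosen as baseline changed the size of the result and the genes named. Against control day 3, 1132 probes were at least 2-fold higher in day 7 colonies (3.65%) and 1134 lower (3.65%), where standard day 3 gave 1657 and 946. At 8-fold or more the counts were 45 higher and 16 lower against control day 3, and 107 and 16 against standard day 3. Standard day 3 itself was at least 2-fold higher than control day 3 in 446 probes (1.44%) and lower in 1163 (3.75%). Of the 20 named genes 7 changed in the same direction past the threshold against control day 3 (26.2% of tested probes rose and 26.8% fell). They were Hoxb2, Lamb2, Ciao2b, Zbtb8a, Bcl11a, Slc22a20 and Rpl38. Another 5 kept the sign without passing, and 8 had the opposite sign, of which Slc12a4 passed.

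Passage 10 cells stood close to standard day 3. Between them 15 probes were at least 2-fold higher in passage 10 (0.0483%) and 15 lower (0.0483%). Day 7 colonies were at least 2-fold higher than passage 10 cells in 1854 probes (5.97%) and lower in 1110 (3.57%). The comparisons share arrays, so their counts are only set side by side. Passage 10 and standard day 3 shared slides and scan days, which day 7 colonies did not.

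**Figure D4:**
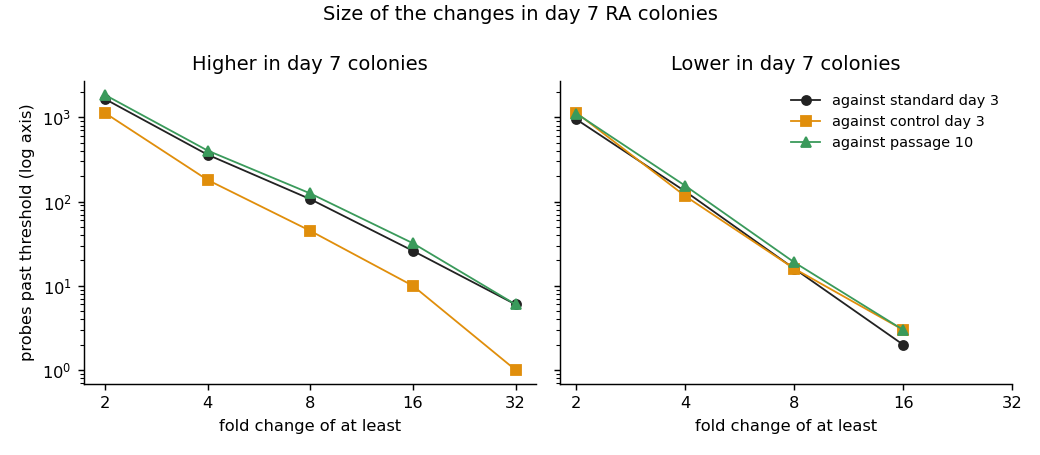
Number of probes past the threshold (log axis) that were higher (left) or lower (right) in day 7 RA colonies by at least the fold on the horizontal axis, against standard day 3, control day 3 and passage 10. Rises of 8-fold or more numbered 107 against standard day 3 and 45 against control day 3, while falls of that size numbered 16 against both. Counts of 0 are not drawn.

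Probes that overlap in sequence gave a check of single probes within the same arrays. Among tested probes 600 pairs on the same strand shared a run of at least 30 bases, 23 of them with identical sequences. Both members of 356 pairs passed the threshold, and in 355 they changed in the same direction. In 91 pairs at least 1 member passed it with a change of at least 2-fold. In 73 of these 91 both members did, always in the same direction. The median difference between the changes of a pair was 0.07, and 0.05 for identical sequences. Some pairs lay much farther apart, such as Z00076243-1 (0.16) and Z00038318-1 (1.57), or the 2 Rpl38 probes (-0.68 and 0.05). Across pairs, which share arrays and sequence, the changes correlated at r = 0.976. In 18 pairs that overlap on opposite strands r was 0.0431. The pairs with the largest rise and the largest fall are shown with the shared run in capitals.
Z00057509-1: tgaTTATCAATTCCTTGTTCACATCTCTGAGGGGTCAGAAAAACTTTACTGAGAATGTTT
Z00033541-1: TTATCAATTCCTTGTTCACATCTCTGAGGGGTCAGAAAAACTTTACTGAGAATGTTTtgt
Z00075197-1: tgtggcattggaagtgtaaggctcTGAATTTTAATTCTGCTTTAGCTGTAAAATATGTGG
Z00035221-1: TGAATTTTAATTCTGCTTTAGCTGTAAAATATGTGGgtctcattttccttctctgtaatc

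Z00057509-1 and Z00033541-1, with 57 shared bases, rose by 3.75 and 3.52 (limma adjusted p = 1.01e-11 and 1.89e-10). Z00075197-1 and Z00035221-1, with 36 shared bases, fell by 2.87 and 2.75 (limma adjusted p = 1.75e-11 and 3.09e-11). Such pairs share most of their target sequence, so the counts of probes are not counts of separate transcripts.

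**Figure D5:**
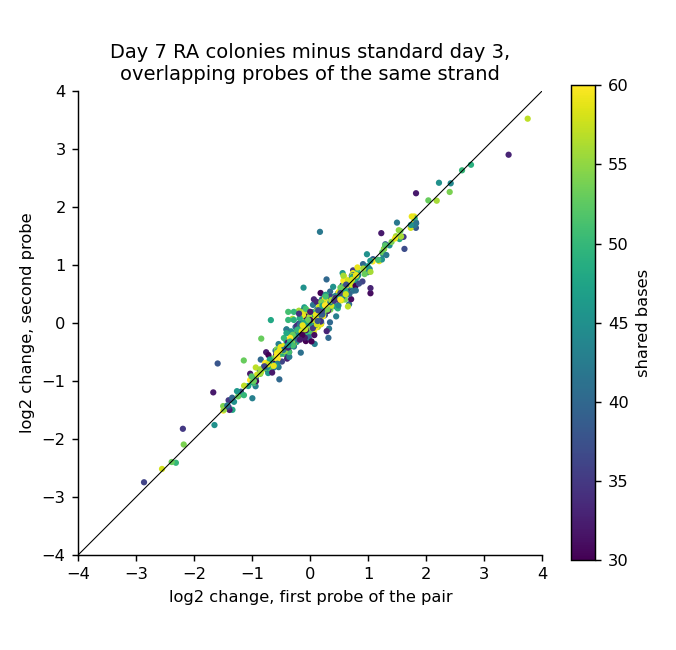
Log2 change in day 7 RA colonies against standard day 3 for both probes of the 600 same-strand pairs that share at least 30 bases, coloured by the number of shared bases. Points lie along the diagonal of equal change (r = 0.976), with a few pairs apart from it.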

How the data were processed

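RNA of ES cells was read on 2-colour Agilent arrays, 2 per group. Per the file headers, the authors extracted mean spot and median local background intensity with version 9.5.1.1 of Agilent Feature Extraction. Its log10 ratios, also deposited, have Cy5 on top. A log10 table of 25030 probes made by the authors was used as an alternative. With each probe centred on its mean over arrays, it tracked minus the log10 ratios (r of 0.99927 to 0.99997 over 14654 brighter probes). So it runs sample over reference on the log10 scale, but the constant each probe carries, the centring and the floor for dim probes are not given in the sources used here. Its column medians were 2.24 to 2.32. From the deposited intensities, log2 ratios of sample to reference were computed with limma 3.58.1 (R 4.3.3, statmod 1.5.0, and data.table in version 1.17.8) by normexp with offset 50 and loess within arrays. Control spots had weight 0, and flagged spots were then left out. A probe was tested if some group had Cy3 well above background on its 2 arrays, which kept 31053 of 42006 (73.9%). The means of 7 groups were fitted over 14 arrays with 7 residual degrees of freedom, and eBayes was two-sided with Benjamini-Hochberg adjustment over all tested probes. The scripts were tested on simulated data. No dyes were swapped, so a constant dye effect cancels between groups. The members and lists were chosen with earlier results of these data known. Named genes are the 10 largest rises and falls among probes placed in 1 gene, past the threshold, without overlap between arrays and above background on both arrays of the higher group. The 40 largest changes by probe, the placed probes with no named gene, the overlapping pairs and Z00024925-1, Z00065931-1, Z00005343-1, Z00015446-1 and Z00014876-1 were chosen after their values were seen, and predicted gene symbols were left out of the named genes. Replicate numbers are not tied to a shared culture, and same-numbered arrays did not deviate together (r = 0.0209). Probe and promoter sequences come from the files and RefSeq.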

Additional observations from a re-analysis of the deposited data

Results flagged for a closer look

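The change in day 7 colonies against standard day 3 was tested against the change after 48 h of RA against control day 3 in limma for 32 probes described above. The difference passed the threshold and was at least 2-fold for 14 of the 32. Over all tested probes it did so for 7.28%. The baselines, slides, cell line labels and strain labels of these comparisons also differ. For 7 the day 7 change was more positive. These were Plet1 (a difference of 1.63), Z00000270-1 (6.00), Z00015331-1 (5.60), Z00074370-1 (5.55), Z00004783-1 (5.53), Z00045959-1 (5.43) and Z00034163-1 (4.51). For 7 it was more negative, Hoxb2 (-1.78), Z00026394-1 (-3.60), Z00048598-1 (-2.12), Z00030538-1 (-1.68), Z00005303-1 (-3.27), Z00024476-1 (-2.29) and Z00024810-1 (-3.82). Hoxb2 rose by 2.32 in day 7 colonies and by 4.11 after 48 h, and the difference had a limma adjusted p of 4.11e-06. Each difference is day 7 minus RA 48 h, less the gap between the untreated groups, standard day 3 minus control day 3. That gap was -0.996 in Plet1 and -0.04 in Hoxb2. It was -2.22 to -3.20 in the more positive unnamed probes and 0.43 to 1.90 in the more negative ones. Day 7 minus RA 48 h was 0.63 in Plet1 and -1.83 in Hoxb2. In these unnamed probes it was 1.72 to 3.33 and -1.25 to -2.55. The Plet1 change against control day 3 was -5.68e-06. The largest changes of day 7 were chosen on arrays that enter this test.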

How the results depend on the processing

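Counts against standard day 3 moved by over 1.5 times under 3 settings. The processed signals of the extraction software gave 3620 probes at least 2-fold higher and 2405 lower. Median centring without loess gave 2676 lower and 589 at least 2-fold lower. The authors' value table gave 5643 higher and 5416 lower, with 2205 higher and 1478 lower at least 2-fold. As it had 19083 probes tested, against 31053 in the values used here, its raw counts are on a smaller base, and a lower count need not be a lower share. Leaving out 1 array at a time, with the lone array assumed to vary like the other groups, gave 7712 to 8563 higher and 6728 to 7384 lower, and 1639 to 1698 higher and 944 to 1026 lower at least 2-fold. With the replicate number as a block the counts were 9050 higher and 8019 lower, and 1658 and 946 at least 2-fold. Among 35 single probes 571 of 586 values kept their direction and their side of the threshold. With control day 3 as the baseline 8 had the opposite sign: H2bc11 (-0.0915), Plet1 (-5.68e-06), Sec61b (-0.0877), Slc12a4 (0.29), Mllt6 (0.00668), Zbtb22 (0.18), Frg2f1 (0.16) and Snrnp40 (0.12). The cause was not tested. Another 7 values lost the threshold, 5 with that baseline, 1 under median centring and 1 when Cy3 was used without Cy5. Of 121 tested probes placed in 1 gene by a match of all 60 bases, 20 rose (16.5%) and 14 fell (11.6%), against 28.4% and 25.1% of all tested probes, and 1 rose and 2 fell at least 2-fold, against 5.34% and 3.05%. The gene lists held too few probes for counts under these settings, which were not run. Depth of signal over background limits the dim probes.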
